A study of Mus musculus with 2 samples.

Results

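The genes described here are the cytokine, chemokine, TNF and NF-kB genes of an RNA-seq table of mouse embryonic stem (ES) cells. They were chosen by a rule on gene symbols, with earlier results of these data known. The rule takes interleukins and their receptors, CXC and CC chemokines and their receptors, and colony stimulating factor genes. It also takes the TNF superfamily and TNF-induced genes, NF-kB and IkB genes, TRAF adaptors, the interferon regulatory factors (IRFs) and interferon receptors. Il6st, the shared signalling chain of the interleukin-6 family, was left out. The rule found 93 genes among the 14261 rows of the table.

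The dox culture, TRE-suspend-adox-36h, held TRE-ESC cells given dox (doxycycline, which turns on transgenes under tetracycline control), and the no dox culture, TRE-suspend-36h, held TRE-ESC cells without it. Both were labelled 36 h and both grew in suspension in low-adsorption dishes, in N2B27 medium with 2i (kinase inhibitors) and LIF, a cytokine that activates the JAK-STAT pathway. The series title names differentiation induced by c-Jun, an AP-1 transcription factor subunit, and the labels name neither the transgene nor the clone. There was 1 library per group, so the differences have no replicate check, and no test, SD or p-value was computed.

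Cytokines and chemokines are secreted proteins that act on receptors of nearby cells. Receptors of the TNF and interleukin-1 families recruit TRAF adaptors, which lead to the breakdown of IkB proteins and so release NF-kB dimers into the nucleus. Interferon and class I cytokine receptors signal through JAK kinases and STAT factors, and IRFs act beside them. The responses of ES cells to inflammatory cytokines and interferons are known to be weak compared with those of differentiated cells.

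The deposited values are whole numbers on a normalized count scale on which both libraries had quartiles of 14, 62 and 184, so depth per library is unknown and no counting interval is given. Jun, the gene of the c-Jun named in the series title, was listed at 3821 with dox and 55 without. All 12 ES cell markers had values of at least 50, with Pou5f1, which encodes Oct4, at 3572 with dox and 3230 without. In that list 7 markers were lower with dox by 2-fold or more and 0 higher, with a median log2 ratio of −1.09. Folds and log2 ratios compare dox with no dox, each value plus a pseudocount of 10, which understates differences of low genes. A gene is called higher or lower at 2-fold or more, where its larger value is at least 50.

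Most of these genes had low values in both libraries. A value of at least 50 in either library was reached by 31 of the 93 members (33.3%), against 59.9% of all rows. Of the other 62 members, 14 were listed at 0 in both libraries, which is 15.1% of the members against 4.41% of all rows. Among the members higher with dox, the receptor genes Csf1r and Tnfrsf12a differed by several fold. The largest difference in the other direction was that of the chemokine gene Ccl25.

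Of the 31 members that reached 50, 7 were higher with dox by 2-fold or more, 3 were lower and 21 were within 2-fold. Among all 8547 genes that reached 50, 9.23% were higher and 5.49% were lower, and the members' shares were 22.6% and 9.68%. The members' median log2 ratio was 0.38, and that of all genes was −0.08. The ratio was above 0 in 22 of the 31 members (71.0%) and in 44.1% of all genes. At 4-fold 3 members were higher and 1 was lower, beside 3.11% and 0.644% of all genes. At 1.5-fold 13 were higher and 4 lower, beside 16.7% and 17.7%. These shares depend on how a gene reached 50, because a gene that did so in 1 library only tends to differ. Of the members, 7 reached 50 with dox only, and 6 of these were called higher. Another 3 reached it without dox only, and 2 of these were called lower. Among the 21 members at 50 or more in both libraries, 1 was higher and 1 was lower, with 4.92% higher and 3.24% lower among the 7046 genes of that kind. The median log2 ratio of these 21 members was 0.19, against −0.08 for all genes of that kind.

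**Figure D1:**
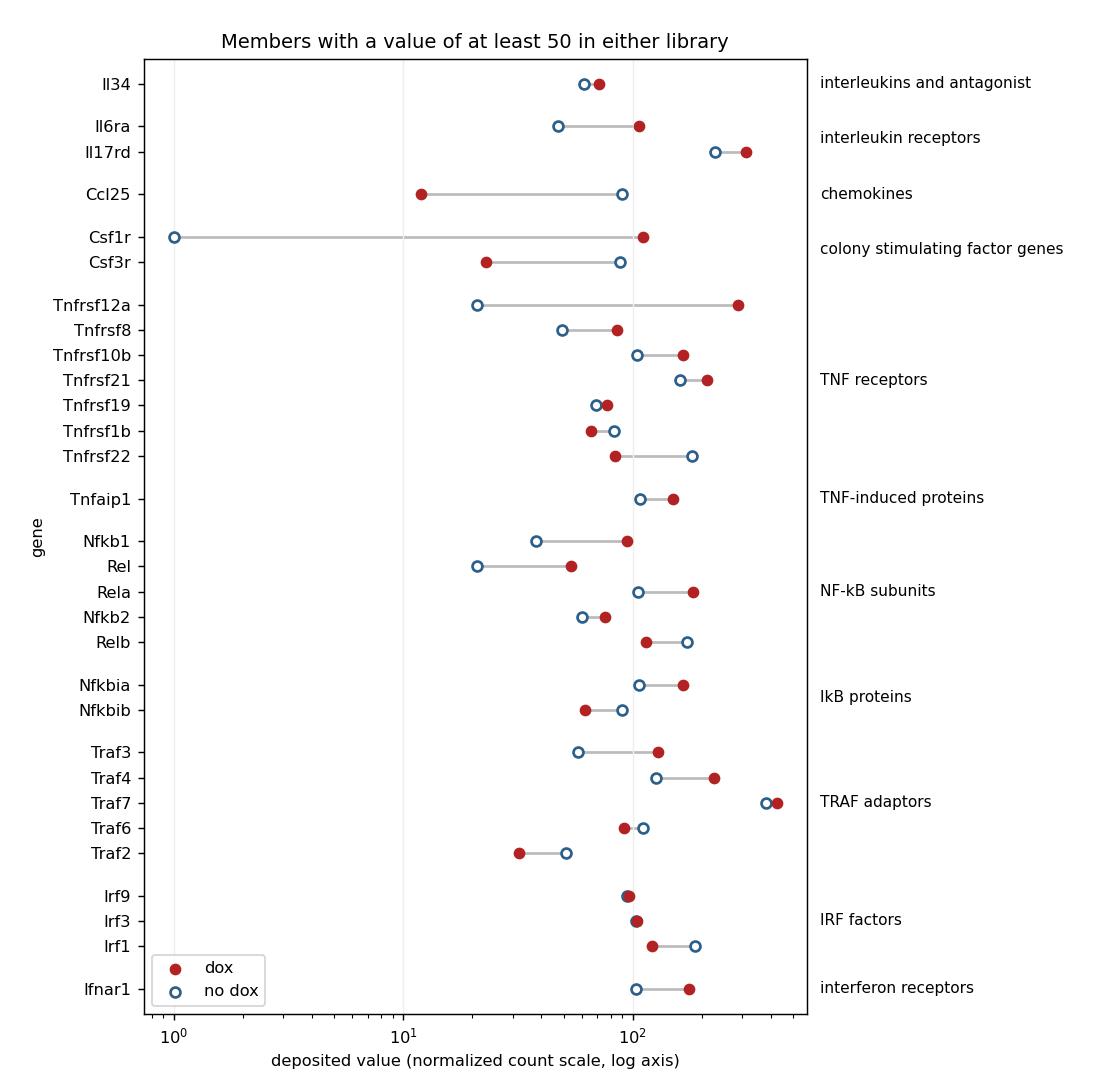
Deposited values (normalized count scale, log axis) of 30 of the 31 members that reached 50 in either library, grouped by role. Each gene has 1 filled point for the dox library and 1 open point for the no dox library. Wide gaps are those of Csf1r at 111 and 1 and Tnfrsf12a at 288 and 21, both higher with dox. Ccl25 at 12 and 90 and Csf3r at 23 and 88, both lower with dox, also have wide gaps. Most other pairs lie close together.

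Among the IRFs, the factors that act in innate immunity and interferon signalling were within 2-fold or under 50. Irf3, which is activated by sensors of viral nucleic acid, stood at 104 with dox and 103 without, and Irf9, the DNA-binding part of the interferon-activated STAT complex, stood at 96 and 94. Irf1, an interferon-induced activator, stood at 121 with dox and 187 without, and its log2 ratio of −0.59 is the nearest to the line among members that reached 50 and fell short of a lower call. Under 50 in both libraries, Irf5 was listed at 16 with dox and 2 without, Irf7 at 8 and 2, and Irf2 at 3 and 0.

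Among the interferon receptor genes Ifnar1, 1 chain of the type I interferon receptor, was listed at 176 with dox and 103 without, 1.65-fold higher and short of the 2-fold line. The gene of the other chain, Ifnar2, went the other way at lower values, 13 with dox and 31 without. Ifnar2 shares 9.46% of its exonic bases with a read-through gene on the same strand. The interferon gamma receptor genes Ifngr1, at 17 with dox and 7 without, and Ifngr2, at 6 and 3, and the lambda receptor gene Ifnlr1, at 15 and 11, had low values in both libraries.

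Of the colony stimulating factor genes, which act on myeloid cells in the adult, 2 receptors differed in opposite directions. Csf1r, the receptor of Csf1 and Il34 on macrophages, was listed at 111 with dox and 1 without. Its log2 ratio of 3.46 depends on the small value without dox, and was 5.81 with a pseudocount of 1 and 1.66 with a pseudocount of 50. The 873 bases that Csf1r shares with exons of Hmgxb3 on the opposite strand are 15.1% of its exonic bases. Whether counting used strand is not given in the sources used here, and Hmgxb3 itself stood at 143 with dox and 170 without. The ligand gene Il34 was listed at 71 with dox and 61 without, and Csf1 at 7 and 1. Csf3r, the receptor of granulocyte colony stimulating factor, was listed at 23 with dox and 88 without, 2.97-fold lower with dox. Its position in GRCm38 is chromosome 4, 126024550 to 126044440, plus strand. A transcript of an unnamed locus aligns to 1518 bases of Csf3r at 96.8% identity, so its reads may be split or shared. Csf2ra, a receptor chain for granulocyte-macrophage colony stimulating factor, stood at 16 with dox and 21 without.

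Since Csf1r and Csf3r are genes of myeloid cells, leukocyte markers are given beside them. Of 25 markers 9 had a row, 2 reached 50 (1 higher with dox, median log2 ratio 0.81, or −0.28 with no floor), and the values of the 9 summed to 466 with dox and 463 without. Laptm5, a lysosomal membrane gene of blood cells, made up most of this sum, at 316 with dox and 376 without. Cd68, a lysosomal glycoprotein gene of macrophages, was higher with dox, at 96 and 19. Ptprc, the pan-leukocyte marker CD45, was listed at 19 with dox and 0 without, and Lyz2, a lysozyme gene of macrophages, at 0 in both. The remaining markers with a row were no higher with dox than without: Cd3e at 15 and 24, Fcgr3 at 4 and 16, Mrc1 at 10 and 14, Itgam at 3 and 8, and Mpeg1 at 3 and 6. Endothelial markers, of which 3 reached 50, had 0 past 2-fold, with a median log2 ratio of 0.26, or −0.41 with no floor, and sums of 332 with dox and 392 without. Pecam1, an adhesion gene of endothelium, stood at 152 with dox and 205 without, and Eng, a TGF-beta co-receptor gene, at 105 and 84. All 13 fibroblast markers were under 50 in both libraries, with sums of 83 with dox and 45 without and Col3a1 at 39 and 2. What other cells contribute to the values of these receptors was not tested, and in bulk RNA more cells of a type and more RNA per cell cannot be told apart.

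TNF receptor genes formed the role with the most members at 50 or more, 7 of 11. Tnfrsf12a, also called Fn14, is the receptor of the TNF ligand TWEAK, lacks a death domain and signals through TRAF adaptors. It was listed at 288 with dox and 21 without, 9.61-fold higher with a log2 ratio of 3.26. Its position in GRCm38 is chromosome 17, 23675445 to 23677468, minus strand. Its longest transcript has only 984 bases, and per kilobase it had the highest level of all members with dox, 293 per kb, while without dox its 21.3 per kb ranked 20 among the members. The next highest with dox were Traf7 at 132 and Nfkbia at 105 per kb. The gene of its ligand, Tnfsf12, was listed at 2 with dox and 0 without.

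Tnfrsf22, a mouse decoy receptor for the death ligand TRAIL, was called lower, at 84 with dox and 182 without, a log2 ratio of −1.03 that is the nearest to the 2-fold line among lower members. Its transcript aligns to those of 20 other genes over at least 200 bases at 90% identity or more, among them its neighbour Tnfrsf23 over 2172 bases at 91.2%, so its reads are uncertain. Tnfrsf23 was listed at 5 with dox and 0 without. Tnfrsf10b, the mouse TRAIL death receptor, stood at 166 with dox and 104 without, a log2 ratio of 0.63.

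Tnfrsf21, a receptor with a death domain, had 211 with dox and 160 without. Tnfrsf8, which encodes CD30, an antigen of activated lymphocytes that is also known from cultured pluripotent cells, had 85 and 49, 1.61-fold higher. The receptors of TNF itself were not called. Tnfrsf1b stood at 66 with dox and 83 without, and Tnfrsf1a, the receptor with a death domain, at 35 and 22, under 50 in both. Tnfrsf19, known as Troy, stood at 77 with dox and 69 without. Tnfrsf11a, which encodes RANK, was listed at 4 with dox and 2 without, and Tnfrsf11b, the gene of the decoy osteoprotegerin, at 0 in both.

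The TNF ligands with a row were all near 0. Tnfsf12, Tnfsf18 and the read-through gene Tnfsfm13, which shares exons with Tnfsf12, were listed at 2, 1 and 1 with dox and at 0 without. Of genes induced by TNF, Tnfaip1, an adaptor of cullin ubiquitin ligases, was listed at 149 with dox and 107 without. Tnfaip3, the gene of the NF-kB inhibitor A20, stood at 9 with dox and 0 without, Tnfaip8 at 10 and 17, Tnfaip6 at 7 and 5, and Tnfaip2 at 0 and 5. These 4 genes were under 50 in both libraries, with values on both sides.

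All 5 NF-kB subunit genes reached 50, and 4 of them had larger values with dox, beside 44.1% of all genes that reached 50. Nfkb1 and Rel reached 50 with dox only. Nfkb1, which encodes the precursor of a DNA-binding subunit of the canonical pathway, was listed at 94 with dox and 38 without, 2.17-fold higher. Rel, the gene of c-Rel, stood at 54 with dox and 21 without, 2.06-fold higher. Rela, which encodes the main activating subunit, stood at 183 with dox and 105 without, a log2 ratio of 0.75, within 2-fold. Nfkb2, the precursor gene of the non-canonical pathway, stood at 76 and 60. Relb, the partner of its product, was the exception, at 114 with dox and 172 without, a log2 ratio of −0.55. The calls of Nfkb1 and Rel lie close to the line, and both were under 2-fold with a pseudocount of 50, at log2 ratios of 0.71 and 0.55. With the trend of ratios on transcript length removed, Rel was also under the line, at 0.88.

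Among the IkB genes Nfkbia, whose product holds NF-kB in the cytoplasm and which is itself a target of NF-kB, was listed at 166 with dox and 106 without, 1.52-fold higher. Nfkbib, a second inhibitor of this kind, stood at 62 with dox and 90 without. The other 4 were under 50 in both libraries, with Nfkbil1, an IkB-like gene, at 19 and 30, Nfkbiz at 11 and 13, Nfkbid at 1 and 10, and Nfkbie at 3 and 2. No IkB gene was past 2-fold.

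TRAF adaptors reached 50 in 5 of 6 cases. Traf3, which restrains the non-canonical pathway by holding its kinase at a low level, was called higher, at 129 with dox and 58 without, 2.04-fold. It was the member called higher that reached 50 in both libraries. Traf4, known from development of epithelia and the nervous system, stood at 225 with dox and 126 without, a log2 ratio of 0.79, the nearest to the line among members that reached 50 and fell short of a higher call, followed by that of Rela. Traf7, the member with the largest value, stood at 423 and 380. Traf6, the adaptor of interleukin-1 and Toll-like receptors, stood at 92 with dox and 111 without, and Traf2, the adaptor of the TNF receptors, at 32 and 51. Traf5 was under 50, at 8 with dox and 17 without.

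**Figure D2:**
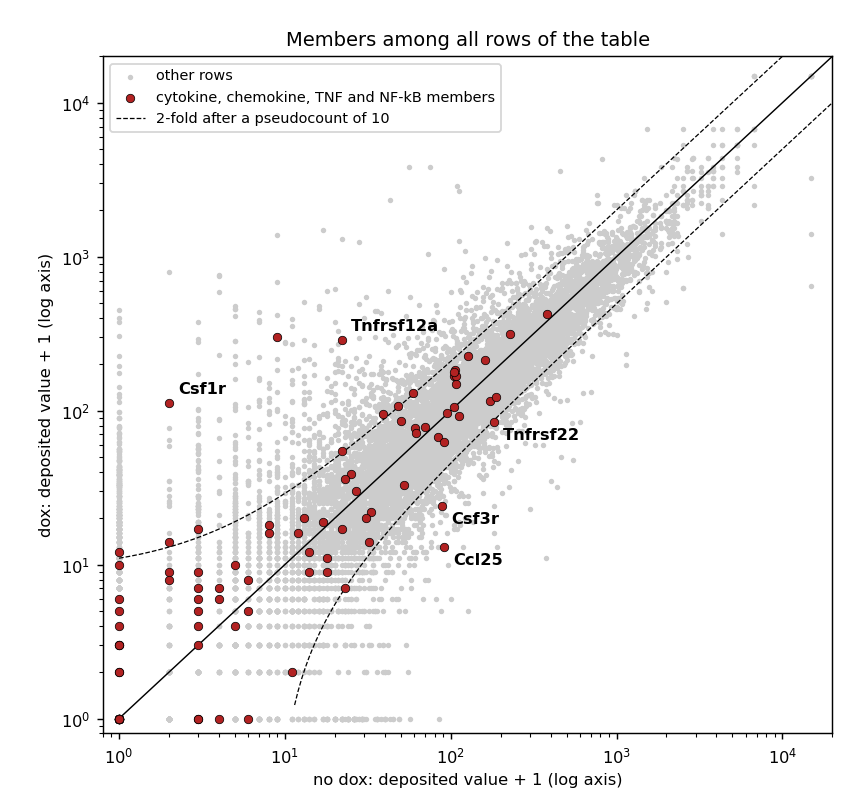
Deposited value plus 1 with dox (vertical, log axis) against that without dox (horizontal, log axis) for all 14261 rows, with the 93 members as large points, the line of equal values and dashed lines at 2-fold after a pseudocount of 10. The 5 labelled members are Csf1r and Tnfrsf12a above the lines and Ccl25, Csf3r and Tnfrsf22 below them, and most members lie at low values near the line of equality.

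Of 20 interleukin receptor genes 2 reached 50. Il6ra, the ligand-binding chain for interleukin-6, was called higher, at 106 with dox and 47 without. Its log2 ratio of 1.03 is the nearest to the line among the members called higher, with Traf3 next, and it was 0.84 with the length trend removed. Il17rd, also called Sef, an inhibitor of FGF receptor signalling, stood at 313 with dox and 228 without and was within 2-fold.

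Of the interleukin receptor genes under 50, Il13ra1 was listed at 38 with dox and 24 without, and Il17ra at 29 and 26. Il12rb2 stood at 6 with dox and 22 without, and 1519 of its 3794 exonic bases overlap exons of Serbp1 on the opposite strand. The gamma chain gene Il2rg, shared by several interleukin receptors, stood at 18 and 16. Both genes of the interleukin-1 receptor complex had low values, with Il1rap at 15 and 7 and Il1r1 at 6 and 2. Il4ra, Il1rl1, Il13ra2 and Il11ra2 were listed at 0 in both libraries. Of the 14 genes of this role under 50 and not at 0 in both, 10 had larger values with dox, 3 had smaller ones and Il7r was equal.

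Among interleukins Il34 was the 1 gene that reached 50. Il11, a cytokine of the interleukin-6 family, was listed at 5 with dox and 3 without, the antagonist gene Il1rn at 4 and 5, the alarmin gene Il33 at 3 and 4 and Il24 at 2 and 0, while Il2 and Il7 were listed at 0 in both.

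Of 11 chemokine genes 1 reached 50. Ccl25, a chemokine of the thymus and small intestine that attracts lymphocytes, was listed at 12 with dox and 90 without, 4.55-fold lower and a log2 ratio of −2.18. Its position is chromosome 8, 4325210 to 4360020, plus strand, and it overlaps exons of Elavl1 on the opposite strand over 2.74% of its exonic bases. Ccl25 was also past 2-fold with each pseudocount and with the length trend removed, at log2 ratios between −2.81 and −1.18.

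The other chemokines were near 0. Cxcl16, a transmembrane chemokine, was listed at 13 with dox and 1 without and shares 18.3% of its exonic bases with Zmynd15 on the opposite strand. Cxcl14, an epithelial chemokine, stood at 11 with dox and 0 without. The interferon-induced Cxcl10 was listed at 0 with dox and 3 without, and the stromal Cxcl12 at 0 and 2. The inflammatory chemokine genes Ccl2, Ccl5, Ccl7, Ccl8, Cxcl5 and Cxcl15 were listed at 0 in both libraries. Of chemokine receptors, Cxcr2, a receptor of neutrophils, stood at 21 with dox and 32 without, Cxcr6, the receptor of Cxcl16, at 5 and 2, and Ccr2, the receptor of Ccl2, at 0 in both.

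**Figure D3:**
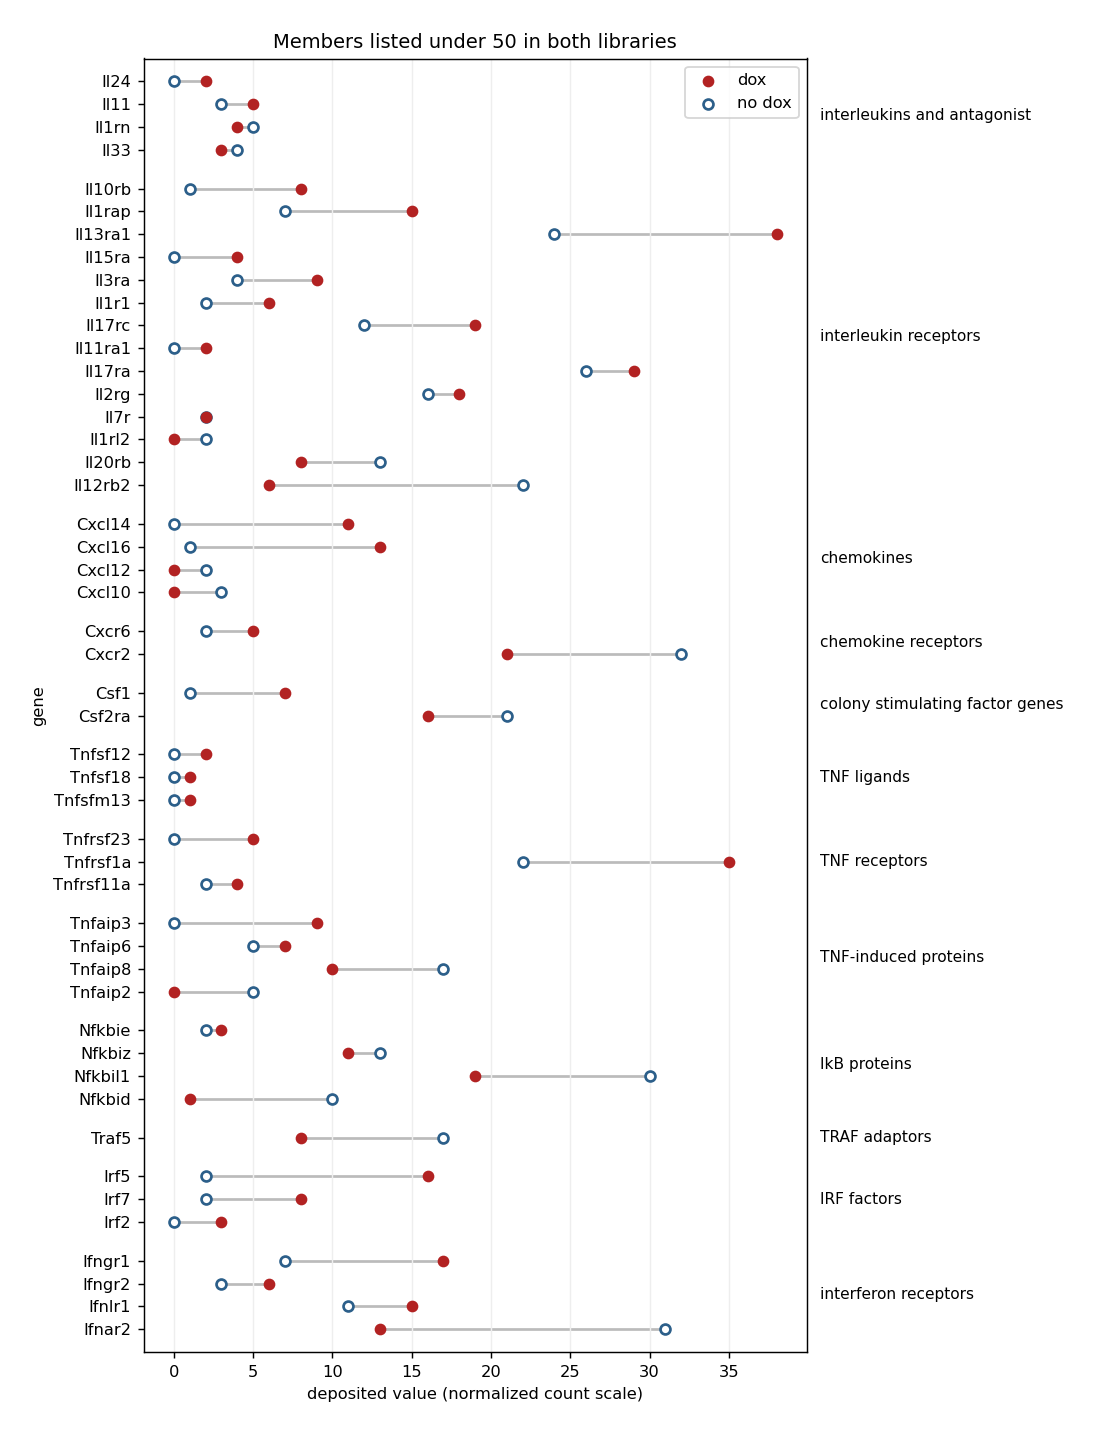
Deposited values (normalized count scale, linear axis from 0) of the 48 members under 50 in both libraries and not at 0 in both, grouped by role, with filled points for the dox library and open points for the no dox library (Il7r has equal values). Of these, 31 have the larger value with dox and 16 the smaller one, and no value exceeds 38.

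Across the 48 members of that kind, 64.6% had larger values with dox, against 44.9% of the 5085 rows of the table of the same kind. At values this low a difference of a few units cannot be set against any error.

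Promoter sequences from RefSeq (build GRCm38.p6, 250 bases before to 50 after each gene start) were found for 73 of the 93 members. They were searched on both strands for an AP-1 motif, TGANTCA, and for an NF-kB motif, which reads GGGA, any 2 bases, then TTCC. No match of one overlapped a match of the other. The AP-1 motif was present for 10 of the 73 members (13.7%) and for 8.97% of all 27025 genes with a promoter. Among the 24 members with a sequence that reached 50, it was present for 2 (8.33%). The NF-kB motif was present for 6 of the 73 members (8.22%), for 3 of those 24 (12.5%) and for 1.63% of all genes. Of the 6 called members with a sequence, 0 held the AP-1 motif and 1, Csf3r, held the NF-kB motif. A match is only a run of letters and shows no binding, and no match says only that these letters are not in this window.

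NF-kB matches of 4 members are shown, each with 10 bases on either side and the match in capitals, to set the letters beside genes with different values. Read along the strand of the gene, the capitals are in each case the reverse complement of the motif letters given above. The matches shown begin 29 bases before the start for Nfkbia, 129 for Csf3r, 154 for Csf1 and 236 for Nfkb2, in chr12:55492657-55492686 (minus strand), chr4:126024520-126024549 (plus), chr3:107760604-107760633 (minus) and chr19:46305449-46305478 (plus). Nfkb2 also held another match in the forward letters, GGGACTTTCC in chr19:46305695-46305724 (plus), which is not shown.
Nfkbia: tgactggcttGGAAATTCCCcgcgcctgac
Csf3r: ccctgaggcaGGAAGGTCCCtagctcacca
Csf1: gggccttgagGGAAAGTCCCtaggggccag
Nfkb2: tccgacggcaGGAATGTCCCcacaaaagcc
Csf3r was lower with dox, Nfkbia and Nfkb2 were within 2-fold with larger values with dox, and Csf1 was near 0, at 7 and 1. Of all 6 members with the NF-kB match, 4 had larger values with dox and 2 had smaller ones (Csf3r and Cxcl10).

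The AP-1 matches are shown in the same way for the 2 members that reached 50, Tnfrsf8 and Nfkb2, and for Tnfaip3, the gene of A20. They lie in chr4:145315280-145315306 (minus strand), chr19:46305475-46305501 (plus) and chr10:19015530-19015556 (minus).
Tnfrsf8: tggctagcccTGAGTCAtctctgcacg
Nfkb2: agcccctgggTGAATCAgccgtgtcct
Tnfaip3: aatgcccaggTGACTCAcgcggggaca
These genes stood at 85 with dox and 49 without, 76 and 60, and 9 and 0, and none was called. Tnfaip3 was picked after its values were seen. Of all 10 members with the AP-1 match, 7 had larger values with dox, 2 had smaller ones (Cxcl10 and Il1rn) and Il13ra2 was equal, at 0. All of them but Tnfrsf8 and Nfkb2 were under 50 in both libraries. With or without a match, the value with dox was larger in 22 of the 31 members that reached 50. It was also larger in 31 of the 48 members under 50 and not at 0 in both. The promoter of Tnfrsf12a, the called member with the largest ratio that has a sequence here, held neither motif. The 250 bases before its start, chr17:23677450-23677699 on the minus strand, are shown for that reason, with no capitals because nothing matched.
Tnfrsf12a: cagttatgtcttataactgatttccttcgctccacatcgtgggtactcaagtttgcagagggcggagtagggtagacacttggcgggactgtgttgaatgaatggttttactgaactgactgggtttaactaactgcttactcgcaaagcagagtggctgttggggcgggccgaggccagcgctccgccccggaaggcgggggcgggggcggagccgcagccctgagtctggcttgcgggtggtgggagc

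Other genes of these pathways, which the symbol rule does not take, were described from fixed lists. The counts of each list stand beside 9.23% higher and 5.49% lower among all 8547 genes that reached 50. As for the members, a gene that reached 50 in 1 library only tends to differ. Of the genes called higher below, Card10, Jak2, Socs5, Socs1, Cntfr and Cmtm3 reached 50 with dox only. Of those called lower, Bcl3, Icam1, Saa3, Psmb10 and Pycard reached it without dox only. Among genes at 50 or more in both libraries, 4.92% were higher and 3.24% lower. Of 34 NF-kB pathway kinases and adaptors that reached 50, 3 were higher with dox, 1 was lower and 30 were within 2-fold, with a median log2 ratio of 0.11. Card10, a scaffold that links receptors to the IkB kinase in nonimmune cells, was listed at 278 with dox and 9 without. The adaptor gene Sqstm1 stood at 1072 and 485, and Otud7b, a deubiquitinase of the non-canonical pathway, at 271 and 108. Bcl3, an IkB-like coactivator, was lower, at 40 with dox and 230 without. The IkB kinase genes did not pass 2-fold, with Chuk at 168 and 149, Ikbkb at 85 and 68 and Ikbkg at 65 and 57.

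Of 14 NF-kB target genes that reached 50, 5 were lower with dox, 1 was higher and 8 were within 2-fold, with a median log2 ratio of −0.50. Members that are themselves targets of NF-kB, such as Nfkbia, are not in this list, so it describes only the other targets. The adhesion gene Icam1 was listed at 49 with dox and 137 without. The acute-phase gene Saa3 stood at 11 with dox and 58 without, and the superoxide dismutase gene Sod2 at 424 and 904. Ccnd1, which encodes cyclin D1, at 361 and 902, and Bcl3, which also stands in the list above, were lower too. Vim, the intermediate filament gene vimentin, was higher, at 1571 with dox and 499 without. The direction of the list depended on the floor. With no floor 4 of 26 genes were higher and 6 lower, and the median was 0.06. Among the genes this added, Ptgs2, which encodes an inducible prostaglandin synthase, was listed at 49 with dox and 0 without, and the urokinase gene Plau at 18 and 0. With the length trend removed the median was −0.20. Many of these genes answer to several pathways besides NF-kB.

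Of 21 JAK, STAT and SOCS genes that reached 50, 4 were higher and 1 was lower, with a median of 0.28. The median was −0.26 over the 5 genes at a floor of 250. It was 0.42 over 23 genes at a floor of 20 and over 25 genes with no floor. The kinase genes Jak1, at 368 with dox and 136 without, and Jak2, at 119 and 37, were higher, and Jak3 was lower, at 150 and 392. The feedback inhibitor genes Socs5, at 62 and 8, and Socs1, at 66 and 24, were also higher. Among other cytokines and class I receptors 1 of 7 was higher and 1 lower, with a median of −0.65 that was −0.19 with the length trend removed and turned to 0.18 over 17 genes with no floor. Cntfr, the receptor gene of ciliary neurotrophic factor, was listed at 77 with dox and 0 without, and the LIF receptor gene Lifr at 59 and 157. Il6st, the signalling chain that Il6ra, Cntfr and Lifr share, stood at 532 with dox and 351 without.

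TNF superfamily genes with other names had 1 of 3 higher, the nerve growth factor receptor gene Ngfr at 399 with dox and 153 without, and a median of 0.57, or 0.07 with no floor. Chemokine-related genes with other names had 1 of 5 higher, Cmtm3 at 68 and 19, and a median of 0.19 that was −0.18 at a floor of 20. Interferon-stimulated genes had 1 of 13 higher, the class I antigen gene H2-K1 at 156 with dox and 69 without. The 1 lower was the immunoproteasome subunit gene Psmb10, at 11 and 51. Their median was 0.08, and −0.14 over 4 genes at a floor of 250. With no floor 6 of 32 were higher and 1 was lower, with a median of 0.16. Among the genes this added was Usp18, at 38 with dox and 0 without. Over all genes with no floor, 1255 of 13632 were higher and 796 lower. Pattern recognition genes had 2 of 4 lower and 0 higher, with a median of −0.79, or −0.19 over 14 genes with no floor. These were the sensor gene Nod1, at 54 with dox and 193 without, and the inflammasome adaptor gene Pycard, at 47 and 125.

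**Figure D4:**
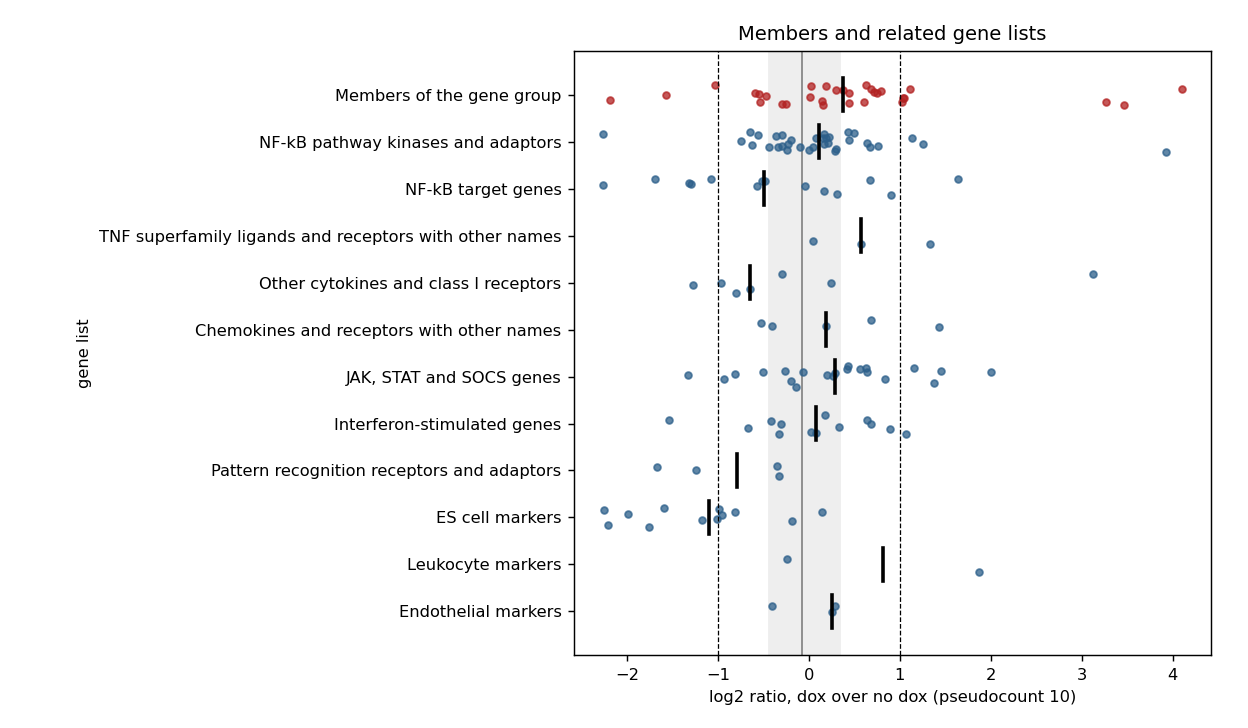
Log2 ratios of dox over no dox (pseudocount 10) of the 31 members and of the genes of each fixed list that reached 50, 1 point per gene, with black bars at the medians, a grey line at the median of all 8547 genes and a grey band over their middle 50%. The members' median is 0.38 and that of the NF-kB target genes other than members is −0.50 (0.06 with no floor). Dashed lines mark 2-fold.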

How the data were processed

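Libraries of total RNA (TRIzol) were prepared with a TruSeq RNA kit for a NextSeq 500, per the labels' protocols. The submitters' processing notes name bcl2fastq, Bowtie2, RSEM and mm10. For versions, annotation and normalization nothing is given in these sources. In the deposited table, each gene has 1 score per library, on a count scale, taken as normalized and rounded by the authors. This was inferred, since 75.5% of sorted positions are exactly equal (tolerance 0) between the libraries. Such values follow ranks more than molecules and do not keep depth, so no count model was used. Unused columns of sample values numbered 0.

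Log2 ratios used a pseudocount of 10, a floor of 50 on the larger value and a 2-fold call. Without replicates no test was possible. All 93 members matched GENCODE M21 on GRCm38, the assembly of mm10, for coordinates, exon overlaps and the longest transcript. Shared sequence was sought with BLAST, and the length trend was removed with lowess (fraction 0.3). Named were called members, those nearest the 2-fold line, the 3 largest of each role, those under the floor reaching 20, and up to 6 called genes from each of 12 lists. Not every gene so taken is reported here by name, though all are counted. Genes beyond these were chosen after their values were seen. Members and lists were chosen with earlier results of these data known. The floor and the 2-fold call were tested on simulated counts with 4-fold changes in genes of higher values. Changes near 2-fold or at low values were not simulated. Steps were run in Python 3.11.15 with pandas 2.3.3 and statsmodels 0.14.6.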

Additional observations from a re-analysis of the deposited data

How the results depend on the processing

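With a pseudocount of 50, 3 members were higher with dox and 1 was lower, in place of 7 and 3, and Csf1r, Tnfrsf12a and Ccl25 were among these 4. A 4-fold line gave the same counts, 3 and 1, and a 1.5-fold line gave 13 higher and 4 lower, against 16.7% and 17.7% of all genes. With the length trend removed 4 were higher and 2 lower. A floor of 250 left 4 members, of which 2 were higher and 0 lower, with a median log2 ratio of 1.85. The median was 0.19 with a floor of 20 and 0.25 with no floor, against 0.38, and it was 0.31 to 0.46 under the other pseudocounts, with the length trend removed or with the median of all genes set to 0. Of 40 ratios of the 10 called members under these 4 changes, 29 stayed past 2-fold, 11 fell short of it and 0 changed sign. The 11 were those of Nfkb1, Rel, Traf3, Il6ra, Csf3r and Tnfrsf22, and Tnfrsf22 passed 2-fold only with pseudocounts of 10 and 1. A window of 250 bases before the start gave the same 10 and 6 members with a motif. Why the counts changed was not tested. No paired analysis was possible because each group has 1 library. Depth is unknown, so differences of members under 50 cannot be told from counting error.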
